A study of Mus musculus with 57 samples.

Results

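Fluoxetine given to Shank2 heterozygous (HT) pups was followed in the prefrontal cortex by comparing 10 HT fluoxetine libraries with 10 HT vehicle libraries, chosen by the genotype and drug in the sample labels, out of 57 libraries in the series. Each group held 5 females and 5 males. All animals were C57BL/6N mice taken on postnatal day 25, and the drug or vehicle had reached them in the milk of their mother from postnatal day 3 to 24, a span of 3 weeks. The 10 WT fluoxetine and 8 WT vehicle libraries served to set the HT change beside that in wild type. They and the lithium libraries of the series (10 HT and 9 WT) also entered the fit that gave each gene its spread. The labels do not describe the Shank2 allele, the dose or the litters. Littermates can resemble each other for reasons other than the drug, so the p-values below measure only the spread between these samples.

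Fluoxetine blocks the serotonin transporter and so prolongs the action of released serotonin. In mice the first postnatal weeks are a time of axon growth, synapse formation and myelination in the cortex, and serotonin acts in this period as a trophic signal as well as a transmitter. Shank2 is a scaffold protein of the postsynaptic density of excitatory synapses, and its loss in mice changes glutamate receptor function and social behaviour. Many results below concern ribosomal proteins, which together with ribosomal RNA form the machine of protein synthesis, and the mitochondrial respiratory chain, whose complexes I to IV pump protons that drive ATP synthase. Both machines are made of many small proteins encoded by short, abundant mRNAs.

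Values are normalized counts per gene. The 20 libraries summed to 31.0 to 32.7 M normalized counts (M, mega), and 21885 to 23114 genes lay above zero in each. Shank2 (ENSMUSG00000037541, chromosome 7) averaged 4288 ± 307 in HT fluoxetine and 4388 ± 293 in HT vehicle libraries (SD, n = 10 each), against 9588 ± 729 in WT fluoxetine (n = 10) and 9579 ± 1519 in WT vehicle libraries (n = 8). The cortical markers Slc17a7 and Tbr1 were abundant in every library, with lowest values of 49540 and 3311 in HT fluoxetine and 56470 and 3385 in HT vehicle libraries. HT fluoxetine male 3 stood apart: on the first principal component, which carried 15.3% of the variance of the 20 libraries, it lay at 59.4, while the other 19 libraries lay between -17.3 and 13.2. Without it 36 genes passed in the comparison below, in place of 55, and 28 genes were in both sets.

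Few genes passed the test between fluoxetine and vehicle in HT mice, and most of those were lower under fluoxetine. Of 16659 genes with a mean of at least 10, 55 passed an adjusted p of 0.05 (limma with Benjamini-Hochberg adjustment), which is 0.33% of the genes tested. Of these, 15 rose (0.09%) and 40 fell (0.24%), while an unadjusted p under 0.05 was reached by 2429. The changes were small: their median size was 0.29 on the log2 scale, where the change averages the differences of log2(value + 1) seen in females and in males. Among the 40 falls, 9 encoded cytosolic ribosomal proteins and 7 encoded subunits of the respiratory chain or ATP synthase. The number of calls depended on single libraries. It was 19, 26, 30 and 33 without HT vehicle female 3, female 1, female 4 and female 2, 25, 28, 32 and 34 without HT vehicle male 4, male 5, male 3 and male 1, and 21, 24 and 36 without HT fluoxetine female 4, female 5 and male 3. It was 86 without HT vehicle female 5 and 171 without HT vehicle male 2. The 14 genes that passed in all 20 of these repeats were Ndufs4, Ccny, Gm10177, Cox7a2, Rpl39, Mtln, Vwa8, Ndufa2, Sh3rf3, Tmem256, Rpl41, Atp5l, Ncstn and Kndc1. All 55 genes kept their direction in every repeat, but they were chosen in these same libraries for changes large against their spread. Leaving out 1 library could therefore hardly reverse them. Without HT fluoxetine male 3, 5 of 9 ribosomal falls, 5 of 7 respiratory falls, 12 of 24 other falls and 6 of 15 rises still passed, with medians of -0.27, -0.26, -0.29 and 0.24. Of the genes named below, Ndufb2, Uqcrq, Rplp1, Rps21, Rps10, Rpl38, Higd1a, Snrpg, Eif4e, Gng13, Ccnd1, Kcnv1, Btbd3, Lpcat1, Plekho2, Gpr34, Sorbs3, Eps15l1, Aldh2, Auts2, Usp54, Nphp4 and 2700046A07Rik passed with that library and not without it.

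**Figure D1:**
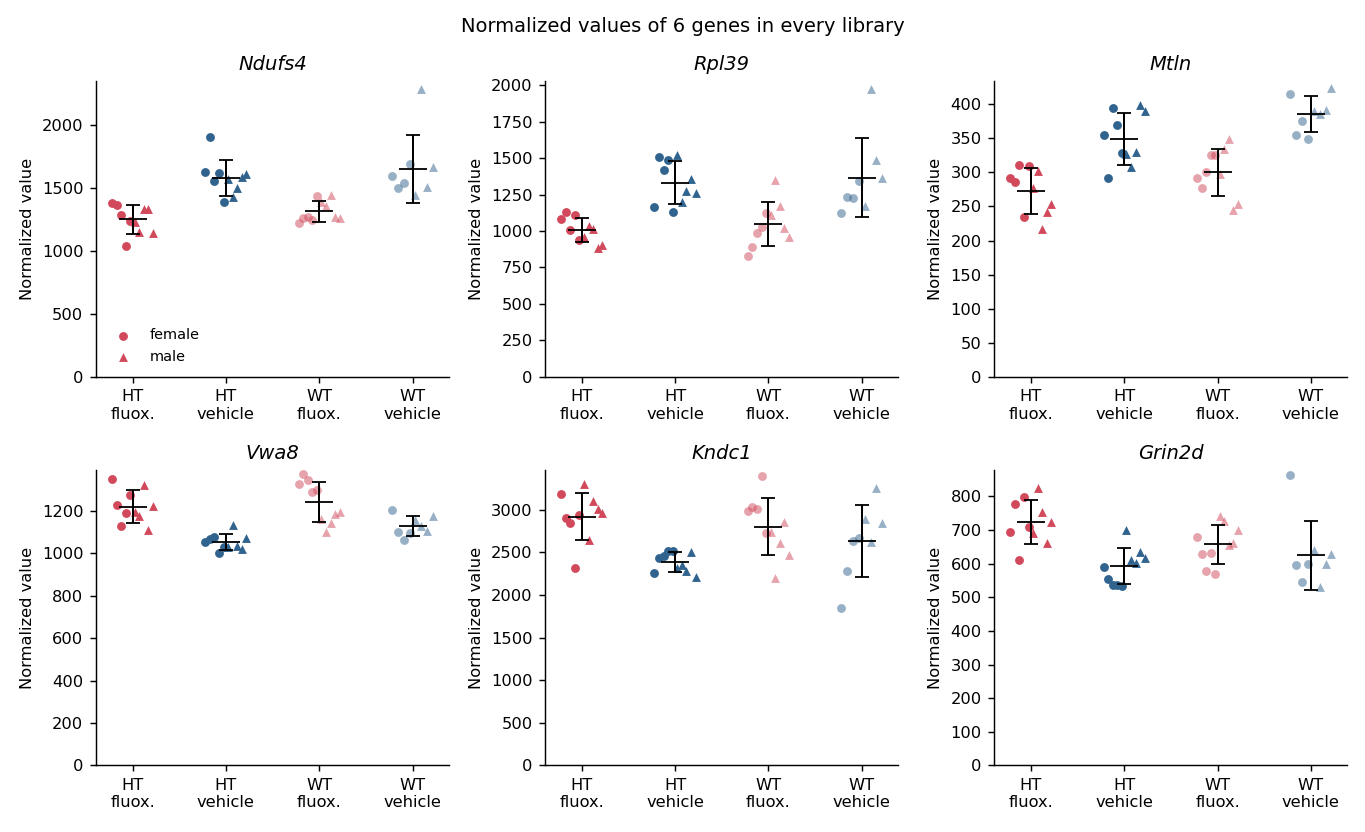
Normalized values of 6 genes that passed the test in HT mice (y axis, from 0) in each library, by genotype and drug (x axis). Points are libraries, circles females and triangles males, and bars are the mean ± SD. Ndufs4 runs from 1035 to 1381 in HT fluoxetine and from 1385 to 1908 in HT vehicle libraries, while Grin2d overlaps between the groups at 611 to 826 and 534 to 701.

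The respiratory genes that passed were all lower in fluoxetine mice. Ndufs4 (ENSMUSG00000021764, chromosome 13, 114287795 to 114388258), an accessory subunit of complex I, had 1035, 1262 and 1381 normalized counts as its lowest, median and highest value in HT fluoxetine libraries, against 1385, 1580 and 1908 in HT vehicle libraries. No fluoxetine library reached the lowest vehicle library. The change was -0.34 ± 0.06 (SE of the fit), or 0.791-fold, with an adjusted p of 0.00968 in limma. Ndufs4 was 1 of only 7 genes tested (0.042%) whose 10 fluoxetine and 10 vehicle libraries did not overlap. Cox7a2, a subunit of complex IV, ran from 2357 through a median of 2581 to 2844 in HT fluoxetine and from 2760 through 3223 to 3614 in HT vehicle libraries, with 7 fluoxetine libraries below every vehicle library (-0.29 ± 0.06, adjusted p 0.00968). Atp5e, the epsilon subunit of ATP synthase, ran from 754 through 1119 to 1325 in HT fluoxetine and from 1183 through 1408 to 1732 in HT vehicle libraries, and 8 fluoxetine libraries lay below every vehicle library (-0.38 ± 0.08, adjusted p 0.0167). The others were Ndufa2 and Ndufb2 of complex I (-0.29 each), Uqcrq of complex III (-0.28) and Atp5l of ATP synthase (-0.21). Ndufa2 and Ndufb2 overlap exons of Tmco6 and Braf on the opposite strand, and whether the counting used strand is not stated in the sources used here.

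Most other respiratory genes lay below zero without passing. Of 79 nuclear genes of the respiratory chain and ATP synthase tested, 7 fell and none rose, against 0.24% and 0.09% of all genes tested. Of the 79 genes, 71 lay below zero (89.9%, against 50.2% of all genes tested). Their median change was -0.11, against 0.00 for all genes. Ndufb6, with an adjusted p of 0.0515, was among the 3 genes just over the threshold, and its values of 965, 1011 and 1097 in HT fluoxetine libraries stood against 1028, 1189 and 1315 in HT vehicle libraries. The 13 genes of mitochondrial DNA gave no call, with a median of -0.12 and changes from -0.42 to 0.55, and mt-Nd4l, with the smallest p, stood at -0.36. Mtln, which encodes a small protein of the inner mitochondrial membrane, ran from 216.5 through 281.9 to 311.1 in HT fluoxetine and from 292 through 342.6 to 399.6 in HT vehicle libraries (-0.36 ± 0.07, adjusted p 0.00968). Higd1a, a mitochondrial protein induced by hypoxia, also fell (-0.27), as did Tmem256 (-0.40) and 2410015M20Rik (-0.32).

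Ribosomal protein genes formed the other large group of falls. Rpl39 ran from 883 through a median of 1010 to 1130 in HT fluoxetine and from 1128 through 1316 to 1525 in HT vehicle libraries, and 9 of 10 fluoxetine libraries lay below every vehicle library (-0.40 ± 0.08, adjusted p 0.00968). Rpl41 had 4245, 4760 and 5917 in HT fluoxetine and 5249, 6048 and 6896 in HT vehicle libraries (-0.30 ± 0.06, adjusted p 0.0136). Rps21 had 1577, 1804 and 2083 in HT fluoxetine and 1825, 2274 and 2758 in HT vehicle libraries (-0.36 ± 0.08, adjusted p 0.0352), so the groups overlapped. The remaining calls were Rpl13a (-0.27), Rplp1 (-0.30), Rpl38 (-0.25), Rpl17 (-0.19), Rps10 (-0.21) and Rpl24 (-0.42). Across both subunits 9 of 80 genes fell and none rose, against 0.24% and 0.09% of all genes tested. Of the 80 genes, 76 lay below zero (95%, against 50.2% of all genes tested). The small subunit had all 33 members below zero with a median of -0.14, and the large subunit 43 of 47 with a median of -0.10. Ribosomal protein genes have many processed copies in the mouse genome, so the authors' counting could split their reads, and single members are uncertain for that reason. Gm10177, a predicted gene annotated as a transcribed processed pseudogene, was among the strongest falls (-0.46, adjusted p 0.00968) and carries the same uncertainty. Which gene it is a copy of is not given here, so it is not counted as ribosomal.

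The coding sequences of 4 of these mRNAs show how small the encoded proteins are. They are from GENCODE vM21 on GRCm38, all lie on the minus strand, and the start and stop codons are in capitals. The genes lie at chr10:128548114-128549305 (Rpl41), chrX:37082520-37085402 (Rpl39), chr2:174461072-174464105 (Atp5e) and chr2:127791388-127792488 (Mtln), and they code for 25, 51, 52 and 56 amino acids.
Rpl41: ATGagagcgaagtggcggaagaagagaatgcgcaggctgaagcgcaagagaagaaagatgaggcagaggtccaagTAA
Rpl39: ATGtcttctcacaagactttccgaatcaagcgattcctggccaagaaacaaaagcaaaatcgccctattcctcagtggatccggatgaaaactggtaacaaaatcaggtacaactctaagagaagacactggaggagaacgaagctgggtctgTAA
Atp5e: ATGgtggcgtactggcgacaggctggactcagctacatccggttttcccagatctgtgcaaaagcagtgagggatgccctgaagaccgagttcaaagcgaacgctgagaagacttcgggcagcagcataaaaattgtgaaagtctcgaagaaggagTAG
Mtln: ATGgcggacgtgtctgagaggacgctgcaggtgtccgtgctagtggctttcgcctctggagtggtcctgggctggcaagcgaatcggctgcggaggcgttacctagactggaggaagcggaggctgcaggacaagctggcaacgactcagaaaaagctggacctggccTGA

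Rpl24 had the largest fall of the ribosomal genes that passed, and its value depended on how reads of that locus were divided. It had 1431, 1758 and 2114 in HT fluoxetine and 1837, 2330 and 2880 in HT vehicle libraries. Gm28037, a transcript that overlaps Rpl24 exons on the same strand, had 684.7, 778.2 and 1167 in HT fluoxetine and 166.7, 353.7 and 614.4 in HT vehicle libraries. It was the only gene tested whose fluoxetine libraries all lay above all vehicle libraries (0.006%), yet its change of 1.25 did not pass in limma (adjusted p 0.451). The sum of both had 2226, 2569 and 2954 in HT fluoxetine and 2232, 2697 and 3079 in HT vehicle libraries. The change of the sum was -0.07 (exact permutation test within sex, two-sided p 0.196), and that of Rpl24 alone was -0.42. In WT mice the sum changed by -0.16 (exact permutation p 0.0309) and Rpl24 alone by -0.51. Gm28037 made up 24.8 to 40.4% of the sum in HT fluoxetine libraries, with a median of 32.0%, and 5.47 to 24.4%, with a median of 12.9%, in HT vehicle libraries. In WT mice, which played no part in choosing this locus, the share was 19.96 to 43.3% in fluoxetine and 0 to 16.1% in vehicle libraries, again without overlap (exact permutation test, two-sided p 6.3e-05, the smallest it can give). The lithium libraries of the series had a median of 31.2% in HT mice (0 to 38.6%, n = 10) and 27.8% in WT mice (15.5 to 38.2%, n = 9). The medians of the vehicle libraries were thus the lowest in both genotypes, and what sets the share was not tested. The labels do not say whether libraries of different drugs were prepared together, so a difference in handling between fluoxetine and vehicle libraries cannot be told apart from the drug in any comparison given here. Rpl24 and Gm28037 were taken up after their values were seen.

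A run of pyrimidines at the start of the mRNA is a known feature of vertebrate ribosomal protein genes, and it places their translation under control of the mTOR pathway. The letters CTTTC were searched on both strands (GAAAG on the other) from 50 bases before to 50 after the annotated start in RefSeq promoters of GRCm38.p6. They were present in 6 of the 7 called ribosomal genes with an entry (85.7%), in 32 of the 52 other ribosomal genes (61.5%) and in 26.2% of all 27025 genes with an entry. Of the 22 other falls with an entry, 1 held them, and of the 9 rises with an entry, 1 did. On the strand of the gene alone, the letters CTTTC were present in 5 of the 7 called ribosomal genes (71.4%), 28 of the 52 others (53.8%), 0 of the 22 other falls, 0 of the 9 rises and 14.6% of all genes. A match from 50 bases before to 50 after the start need not lie at the first bases of the mRNA. Whether the mRNAs begin with a run of pyrimidines was therefore not tested. The windows below run from 40 bases before to 30 after the start, with matches in capitals; that of Rpl39 has no match between these ends.
Rpl13a, chr7:45128716-45128785, minus strand: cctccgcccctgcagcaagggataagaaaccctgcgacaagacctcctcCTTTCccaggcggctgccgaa
Rps10, chr17:27635215-27635284, minus strand: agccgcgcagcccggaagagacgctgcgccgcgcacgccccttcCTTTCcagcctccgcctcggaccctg
Rpl38, chr11:114668540-114668609, plus strand: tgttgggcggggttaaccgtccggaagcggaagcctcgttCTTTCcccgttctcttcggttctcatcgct
Rpl39, chrX:37085193-37085262, minus strand: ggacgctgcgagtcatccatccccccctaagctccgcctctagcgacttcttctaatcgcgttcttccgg

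The other 24 falls had a median transcript length of 1286 bases, against 512 for the ribosomal and 572 for the respiratory falls, and some came from short mRNAs. Snrpg, an Sm protein of the spliceosome, had 265.4, 305.4 and 395.3 in HT fluoxetine and 357.9, 419.1 and 483.5 in HT vehicle libraries (-0.39 ± 0.09, adjusted p 0.0412). Cops9, a small subunit of the COP9 signalosome, fell by 0.29, Gng13, a G protein gamma subunit, by 0.35, and Sar1b, a GTPase of vesicle budding from the endoplasmic reticulum, by 0.17. Eif4e, the protein that binds the cap of mRNAs, had 2160, 2827 and 3098 in HT fluoxetine and 2791, 3300 and 4133 in HT vehicle libraries (-0.28 ± 0.07, adjusted p 0.0411). It was the only one of 42 translation factors to pass (median -0.04), as Snrpg was of 22 Sm and LSm proteins (median -0.07). Gng13 was chosen for mention after its values were seen.

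Falls and rises differed in length. The median transcript length was 660.5 bases for the 40 falls, 2698 bases for the 15 rises and 1560 bases for all genes tested, taking the median over the annotated transcripts of a gene. Of the falls 26 (65%) were under 1000 bases, against 32.6% of all genes. In coding length, 19 of 38 protein-coding falls (50%) had under 150 codons, against none of 13 rises and 6.34% of all protein-coding genes tested. Over all genes the trend was slight: the median change was -0.03 in the shortest of 10 equal bins of genes and 0.01 in the longest. In the shortest bin 61.3% of genes lay below zero, and in the longest 44.1%. The length trend of a library, taken as the rank correlation across genes between length and the deviation from the other libraries, averaged 0.017 ± 0.080 in HT fluoxetine and -0.045 ± 0.049 in HT vehicle libraries (SD, n = 10 each). It lay above zero in 7 of 10 HT fluoxetine and 2 of 10 HT vehicle libraries (permutation test within sex, two-sided p 0.0521, adjusted 0.0936 over 3 library measures). With that trend as a term in the fit, 111 genes passed, 39 of them among the 55. The 9 ribosomal falls then had a median of -0.20 and 6 passed, and the 7 respiratory falls had a median of -0.20 and 6 passed, against medians of -0.30 and -0.29 without the term.

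**Figure D2:**
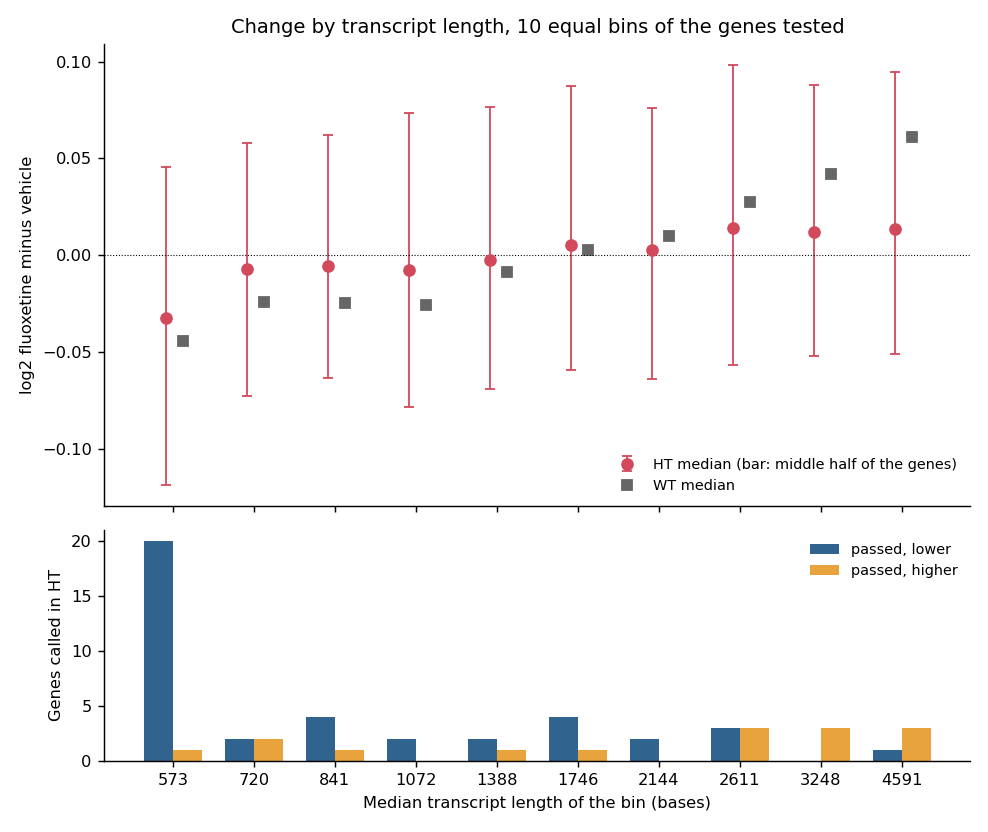
Upper panel, median log2 change (fluoxetine minus vehicle, y axis) of the genes tested in 10 equal bins of transcript length (x axis, median length of each bin in bases), with bars from the lower to the upper quartile of the HT changes and squares for WT medians. Lower panel, the number of genes that passed the test in HT mice. The shortest bin holds 20 of the 40 falls, and the HT medians run from -0.03 to 0.01.

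The remaining falls named here belonged to no gene list, and most had longer mRNAs. Ccny (ENSMUSG00000024286, chromosome 18, 9312304 to 9450154), a membrane-bound cyclin, had 4656, 5145 and 5457 in HT fluoxetine and 5558, 5766 and 6149 in HT vehicle libraries (-0.19 ± 0.04, adjusted p 0.00968). Pdzrn3 (ENSMUSG00000035357, chromosome 6, 101149609 to 101377897), a ubiquitin ligase with PDZ domains, had 1255, 1403 and 1498 in HT fluoxetine and 1503, 1657 and 1722 in HT vehicle libraries (-0.23 ± 0.05, adjusted p 0.0203). In both genes, as in Ndufs4, the groups did not overlap. With the striatal and olfactory marker levels of each library as terms in the fit, the change of Pdzrn3 was -0.13 and did not pass (adjusted p 0.180). Only 6 of all genes tested (0.036%) had every fluoxetine library below every vehicle library, and the other 3, which did not pass the adjusted threshold, were Stx1a, Mgat1 and Camk1. Sh3rf3, a scaffold and ubiquitin ligase with SH3 domains, had 1468, 1725 and 1986 in HT fluoxetine and 1886, 2087 and 2430 in HT vehicle libraries (-0.30 ± 0.06, adjusted p 0.0114).

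Kcnv1, a modifier subunit of voltage-gated potassium channels, had 2448, 2929 and 3429 in HT fluoxetine and 3353, 3545 and 3809 in HT vehicle libraries (-0.27 ± 0.07, adjusted p 0.047). Btbd3, which in mice steers dendrites of cortical neurons towards active axons, fell by 0.19. Ccnd1, cyclin D1, had 683.9, 890.5 and 1095 in HT fluoxetine and 1062, 1135 and 1294 in HT vehicle libraries (-0.31 ± 0.07, adjusted p 0.0253). Ccnd1 lies near Shank2 on chromosome 7 and overlaps LTO1 on the opposite strand, and it was also lower in HT than in WT vehicle mice, a comparison that shares the HT vehicle libraries and in which 0.762% of genes passed (-0.70). Pdgfc, a platelet-derived growth factor (-0.27), Lpcat1, an enzyme of phospholipid remodelling (-0.16), Traf4, a signalling adaptor (-0.32), and Unc119b, a chaperone of lipid-modified ciliary proteins (-0.21), fell as well. Btbd3, Pdgfc, Lpcat1, Traf4 and Unc119b were chosen for mention after their values were seen.

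The 15 rises had varied roles. Their median transcript length was 2698 bases, against 1560 for all genes tested, but 4 (26.7%) were under 1000 bases, against 32.6% of all genes. Vwa8 (ENSMUSG00000058997, chromosome 14, 78849052 to 79202310), a mitochondrial ATPase protein, had 1107, 1209 and 1348 in HT fluoxetine and 1001, 1044 and 1135 in HT vehicle libraries, with 8 fluoxetine libraries above every vehicle library (0.21 ± 0.04, adjusted p 0.00968). Kndc1, a guanine nucleotide exchange factor that restrains dendrite growth, had 2316, 2945 and 3297 in HT fluoxetine and 2205, 2392 and 2515 in HT vehicle libraries (0.29 ± 0.06, adjusted p 0.0203). Grin2d, the NMDA receptor subunit GluN2D, had 610.9, 716.3 and 825.8 in HT fluoxetine and 534, 596 and 700.9 in HT vehicle libraries (0.29 ± 0.06, adjusted p 0.0203). It was the only one of 53 genes of the glutamatergic postsynapse to pass, and that list had a median of -0.01. Ncstn, the nicastrin subunit of gamma-secretase, had 2098, 2232 and 2493 in HT fluoxetine and 1937, 1991 and 2258 in HT vehicle libraries (0.14 ± 0.03, adjusted p 0.0167). Ncstn and Grin2d overlap Copa and Gm45441 on the opposite strand.

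Auts2, a regulator of transcription and neuronal migration linked to autism, had 2327, 2811 and 3333 in HT fluoxetine and 2173, 2313 and 2536 in HT vehicle libraries (0.26 ± 0.06, adjusted p 0.047). It was the only call among 49 chromatin and transcription regulators linked to autism, of which 39 lay above zero, with a median of 0.05. Auts2 passed in 7 of the 20 repeats that each left out a library. With the striatal and olfactory marker terms in the fit its change was 0.20 (adjusted p 0.190), and with the length term 0.18 (adjusted p 0.0889). The other rises included Foxred2, a flavoprotein of the endoplasmic reticulum (0.23), Sorbs3, an adaptor of focal adhesions (0.29), and Eps15l1, an endocytic adaptor (0.16). Nphp4, a protein of the ciliary transition zone (0.22), Inpp5b, an inositol polyphosphate phosphatase (0.28), Aldh2, the mitochondrial aldehyde dehydrogenase (0.17), and Usp54 (0.31) rose too. Without HT fluoxetine male 3, where Sorbs3 was highest, its change was 0.25 with an adjusted p of 0.0654. The largest change belonged to a low predicted gene, 2700046A07Rik, with 13.9, 29.7 and 48.4 in HT fluoxetine and 5.65, 12.7 and 27.4 in HT vehicle libraries (1.06 ± 0.25, adjusted p 0.0352). It was named after its values were seen, and such low values are less precise than those of abundant genes.

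**Figure D3:**
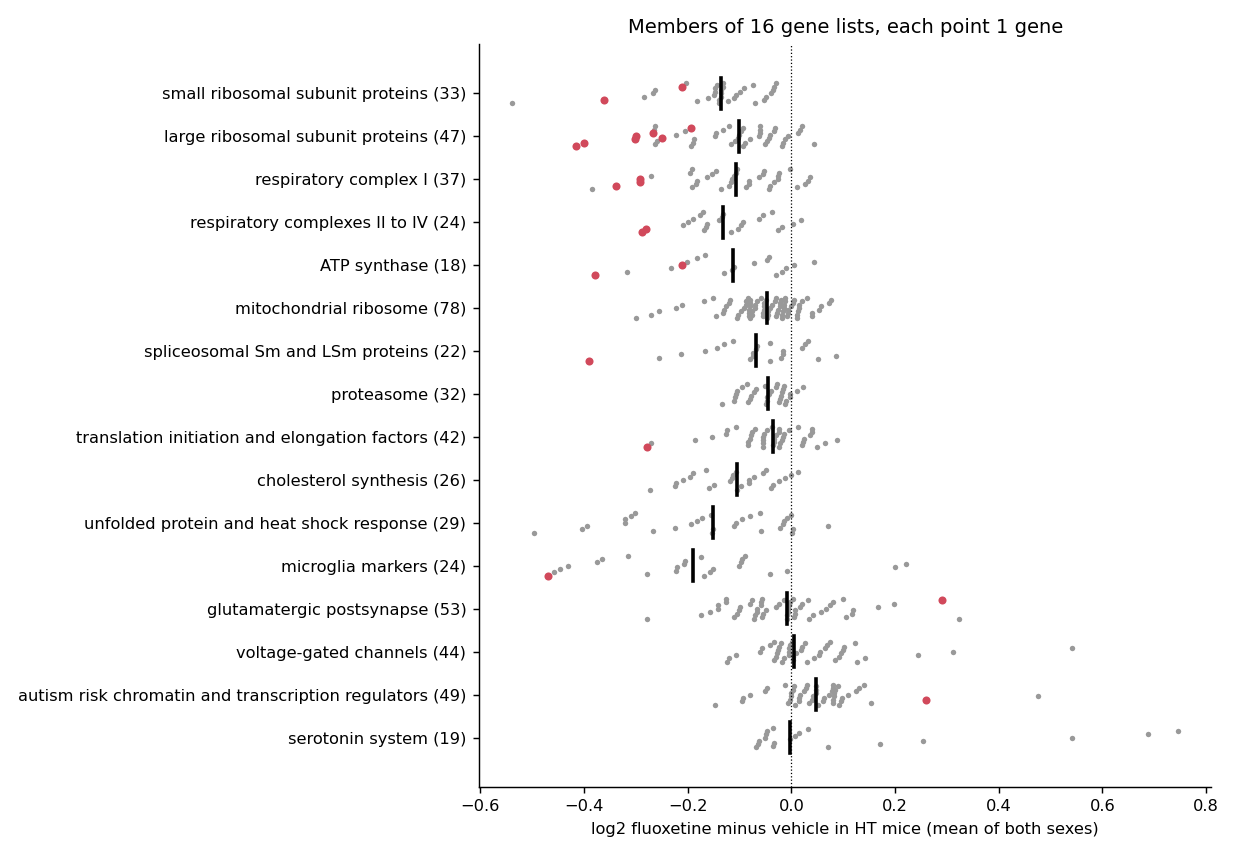
Log2 change of every tested member of 16 gene lists (x axis, fluoxetine minus vehicle in HT mice), 1 point per gene, red where the gene passed the test, black bars for list medians and member numbers in brackets. Both ribosomal lists and the respiratory lists lie mostly below zero with medians between -0.10 and -0.14, and the serotonin list is centred on 0.00.

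Serotonin genes gave no call. Of 23 genes of the serotonin system 19 were abundant enough to test, 10 lay below and 9 above zero, and their median change was 0.00. Htr2a, an abundant excitatory receptor, had 1833, 2073 and 2411 in HT fluoxetine and 1834, 2135 and 2421 in HT vehicle libraries, with a change of 0.01 and a 95% interval from -0.11 to 0.12. Htr1a, an inhibitory receptor and autoreceptor, had 588.3, 638.8 and 767.2 in HT fluoxetine and 596, 696.8 and 762.1 in HT vehicle libraries, with an interval from -0.19 to 0.12. For Htr2c the interval ran from -0.33 to 0.20, for Htr1b from -0.29 to 0.22, for Htr5a from -0.09 to 0.12 and for Htr7 from -0.10 to 0.24. The largest values belonged to low genes: Htr4 had 21.2, 35.2 and 66.5 in HT fluoxetine and 8.87, 20.4 and 48.4 in HT vehicle libraries (0.75 ± 0.35, adjusted p 0.314). Slc18a2, the vesicular monoamine transporter, had 16.6, 24.4 and 47.5 in HT fluoxetine and 4.57, 16.1 and 38.1 in HT vehicle libraries (0.69 ± 0.33, adjusted p 0.312), and Tph1 stood at 0.54 and Ddc at 0.25. The other members tested were Maoa (-0.05), Maob (0.03), S100a10 (-0.05), Htr1d (0.17), Htr1f (-0.06), Htr3a (-0.03), Htr5b (-0.06), Htr6 (0.00) and Tph2 (-0.05).

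No gene of the other pathway lists below passed. Cholesterol synthesis genes lay below zero in 25 of 26 cases with a median of -0.11, and the member with the smallest p, Fdps, had 894.7, 1247 and 1429 in HT fluoxetine and 1294, 1435 and 1543 in HT vehicle libraries (-0.22 ± 0.06, adjusted p 0.0877). Genes of the unfolded protein and heat shock responses lay below zero in 26 of 29 cases with a median of -0.15, led by the chaperone partner Dnajc3 (-0.23, adjusted p 0.0729). The list means of both were lowest in HT fluoxetine male 3, and without it their medians were -0.05 and -0.10. The list of voltage-gated channels did not hold Kcnv1, the channel subunit named above that passed. The proteasome (median -0.05, 32 genes, smallest p for Psmd7 at -0.11), the mitochondrial ribosome (-0.05, 78 genes, Mrpl33 at -0.27), the lysosome (-0.01, 44 genes, Gaa at 0.16) and the listed voltage-gated channels (0.01, 44 genes, Cacna1h at 0.24) gave none either. The same held for the presynaptic vesicle cycle (0.01, Stx1a at -0.18), inhibitory synapses (-0.04, Gabrg1 at -0.17), neurotrophic factors (0.00) and the circadian clock (0.08, Dbp at 0.26). Bdnf, the neurotrophin most studied in relation to antidepressants, had 679.4, 752 and 982.1 in HT fluoxetine and 748.8, 980.1 and 1100 in HT vehicle libraries, and its change of -0.29 ± 0.09 did not pass (adjusted p 0.125). Of immediate early genes 15 of 23 lay below zero with a median of -0.07 (smallest p for Homer1 at -0.28). Of the glucocorticoid and FOXO targets 18 of 22 lay above zero with a median of 0.09, and Plin4 stood at 1.28, or 0.91 without HT fluoxetine male 3, its highest library (adjusted p 0.1002 and 0.216).

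Of the cell type lists, microglia held the only call. Gpr34, a microglial lipid receptor, had 100.3, 295 and 312 in HT fluoxetine and 289.4, 355.7 and 447 in HT vehicle libraries (-0.47 ± 0.11, adjusted p 0.0458). The lowest value was that of HT fluoxetine male 3, and without this library the change was -0.32 with an adjusted p of 0.0611. In whole tissue, fewer cells of a type and less RNA per cell cannot be told apart. The 24 microglia markers had a median of -0.19 with 22 below zero, and -0.10 without HT fluoxetine male 3. The mean of the list in a library, relative to all 57 libraries, ran from -1.02 to 0.17 in HT fluoxetine and from -0.29 to 0.25 in HT vehicle libraries. Oligodendrocyte and myelin markers lay above zero in 19 of 25 cases, with a median of 0.10 and of 0.18 without HT fluoxetine male 3, and none passed. Olig2, with the smallest p of that list, had a change of -0.33 (adjusted p 0.0792). The other cell lists gave no call, and the member with the smallest p is named here with its change. These were astrocyte markers (median -0.06, Slco1c1 -0.28), oligodendrocyte precursors (-0.02, Gpr17 -0.27), endothelial cells (-0.10, Tek -0.29), mural and leptomeningeal cells (-0.04, Myh11 0.37) and red blood cells (-0.23, Hbb-bt -0.44). Choroid plexus (0.14, Clic6 1.28), excitatory neurons (-0.06, Slc17a7 -0.10), cortical layers (0.03, Rorb -0.20), interneurons (0.01, Vip -0.26) and parvalbumin cells with their perineuronal nets (0.01, Acan 0.38) gave none either.

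Markers of neighbouring tissue differed among the fluoxetine libraries. Striatal projection neuron markers had list means from -0.71 to 1.53 in HT fluoxetine and from -0.70 to -0.34 in HT vehicle libraries, and HT fluoxetine female 3, female 5 and male 1 lay highest at 1.53, 1.33 and 0.88. The dopamine receptor gene Drd2 had 22.5, 59.6 and 428 in HT fluoxetine and 19.3, 28.6 and 42.8 in HT vehicle libraries. Olfactory bulb markers ran from -0.75 to 1.67 in HT fluoxetine, highest in female 4, and from -1.14 to 0.93 in HT vehicle libraries, highest in male 5. All 16 olfactory markers lay above zero with a median of 0.68, and 20 of 21 striatal markers did with a median of 0.48, but none passed the test, the smallest p-values being those of Dlx2 (0.57) and Six3 (2.88). With both list means as terms in the fit, 42 genes passed, and 4 of 9 ribosomal falls, 5 of 7 respiratory falls, 11 of 24 other falls and 8 of 15 rises were among them. Their median changes were then -0.27, -0.28, -0.29 and 0.26, against -0.30, -0.29, -0.31 and 0.26 without these terms. Ribosomal and respiratory falls that did not pass with these terms were Rpl41, Rplp1, Rps21, Rpl38, Rpl24, Ndufb2 and Uqcrq. Other named falls that did not were Snrpg, Cops9, Gng13, Sar1b, Pdzrn3, Ccnd1, Kcnv1, Btbd3, Pdgfc, Lpcat1, Unc119b and Gpr34. Named rises that did not were Grin2d (adjusted p 0.0524), Sorbs3, Usp54, Aldh2, Auts2 and 2700046A07Rik.

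**Figure D4:**
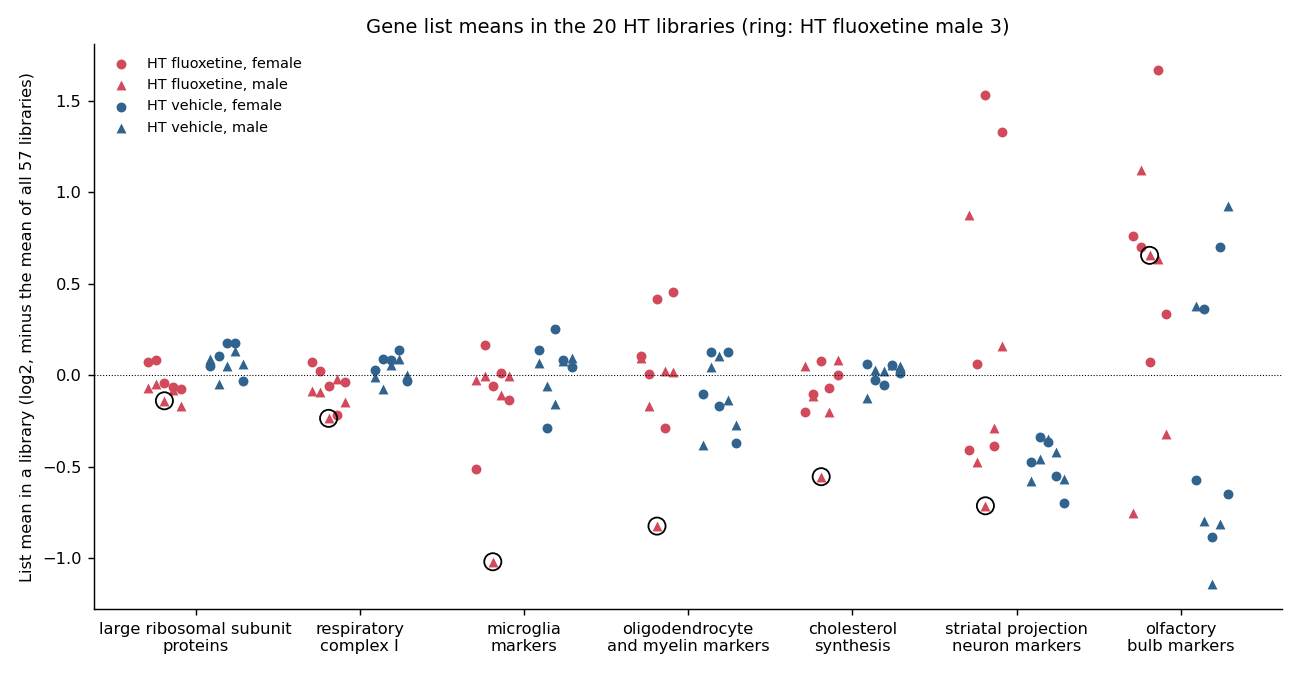
Mean of 7 gene lists in each of the 20 HT libraries (y axis, log2 relative to the mean of all 57 libraries), fluoxetine left of vehicle, circles females and triangles males, with a ring around HT fluoxetine male 3. That library lies at -1.02 for microglia markers, and striatal markers reach 1.53 in fluoxetine but only -0.34 in vehicle libraries.

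In the genes that passed, females and males had like changes. All 55 had the same sign in both sexes, against 60.1% of all genes tested, though the direction over both sexes helped to choose them. The falls had a median of -0.28 in females and -0.33 in males, and the rises 0.23 in females and 0.24 in males. Within 1 sex, with 5 libraries a group, no gene passed in limma (0.0% in females and 0.0% in males), while 1565 genes in females and 1469 in males had an unadjusted p under 0.05. In females the smallest p-values included those of Ccny (-0.24 ± 0.05), Dhtkd1 (0.59 ± 0.13), Grin2d (0.38 ± 0.09), Dnah17 (2.09 ± 0.50) and Cop1 (-0.31 ± 0.07). In males they included those of Atp5e (-0.53 ± 0.11), Mtln (-0.44 ± 0.10), Dlg5 (0.42 ± 0.10), Fry (0.30 ± 0.07) and Vgll4 (-0.39 ± 0.09). None of these passed within 1 sex, while Ccny, Grin2d, Atp5e and Mtln were among the 55 that passed over both sexes. The difference between the sexes gave no call either (0.0%), with 615 genes at an unadjusted p under 0.05. Its smallest p-values belonged to Npr3, at -0.28 in females and 0.27 in males, Pigk (-0.19 in females and 0.21 in males), Lmbrd1 (females -0.18, males 0.24), Cep162 (females 0.30, males -0.31), Med9os (females 0.83, males -0.80) and Fzd8 (females 0.30, males -0.25).

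Each change was set beside that in WT mice, whose libraries are separate, though 1 fit gave the spread for both. Many of the falls, but none of the rises, also passed there. In WT mice 140 genes passed (0.84%), of which 86 fell (0.516%). Of the 55 HT genes, 21 also passed in WT mice, all as falls, which is 38.2% of the HT list and 15% of the WT list. All 40 HT falls and 12 of the 15 HT rises had the same sign in WT mice, against 60.6% of all genes tested. The ribosomal falls had medians of -0.30 in HT and -0.35 in WT mice, and 8 of 9 passed in WT mice. The respiratory falls had medians of -0.29 in HT and -0.28 in WT mice, and all 7 passed in WT mice. The other 24 falls had medians of -0.31 in HT and -0.17 in WT mice, and 6 passed in WT mice. The rises had medians of 0.26 in HT and 0.10 in WT mice, and none passed in WT mice. The HT values were selected for size and the WT values were not. The WT calls depended on WT vehicle male 2, which was the highest WT vehicle library for Ndufs4 (2287, next 1689) and Rpl39 (1973, next 1487). Without it 5 genes passed in WT mice, 3 of them among the 55, and the WT medians were -0.29 for the ribosomal, -0.23 for the respiratory and -0.14 for the other falls. With only the compared groups in the fit, 2 genes passed in WT mice, 1 of them among the 55.

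Shorter and longer falls differed in their WT changes. The 26 falls under 1000 bases had medians of -0.30 in HT and -0.28 in WT mice and 20 of them passed in WT mice, whereas the 14 longer falls had medians of -0.27 in HT and -0.11 in WT mice and 1 passed in WT mice. The limit of 1000 bases was set after the values were seen. Of the 26 shorter falls 17 were members of gene lists, against 2 of the 14 longer ones. Whether length or gene family goes with the difference was not tested. The difference between genotypes gave no call for any gene (0.0%), with a smallest adjusted p of 0.492 and 1285 genes at an unadjusted p under 0.05. For Ccny the change was -0.19 in HT and -0.05 in WT mice (difference -0.14, adjusted p 0.536), for Sh3rf3 -0.30 in HT and -0.09 in WT mice (difference -0.21, adjusted p 0.576), and for Ncstn 0.14 in HT and 0.00 in WT mice (difference 0.15, adjusted p 0.492). Inpp5b stood at 0.28 in HT and -0.02 in WT mice (difference 0.30, adjusted p 0.492). By smallest p the difference was led by Sap25 (0.45 in HT and -0.999 in WT mice), Map2k6 (HT -0.06, WT 0.29), Col9a2 (HT 0.15, WT -0.42), Dlg5 (HT 0.29, WT -0.13), Jmjd4 (HT -0.09, WT 0.13) and Ldlrad4 (HT -0.15, WT 0.15), none of which passed. With the length trend as a term in the fit, 111 genes passed in HT mice and 0 in WT mice.

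**Figure D5:**
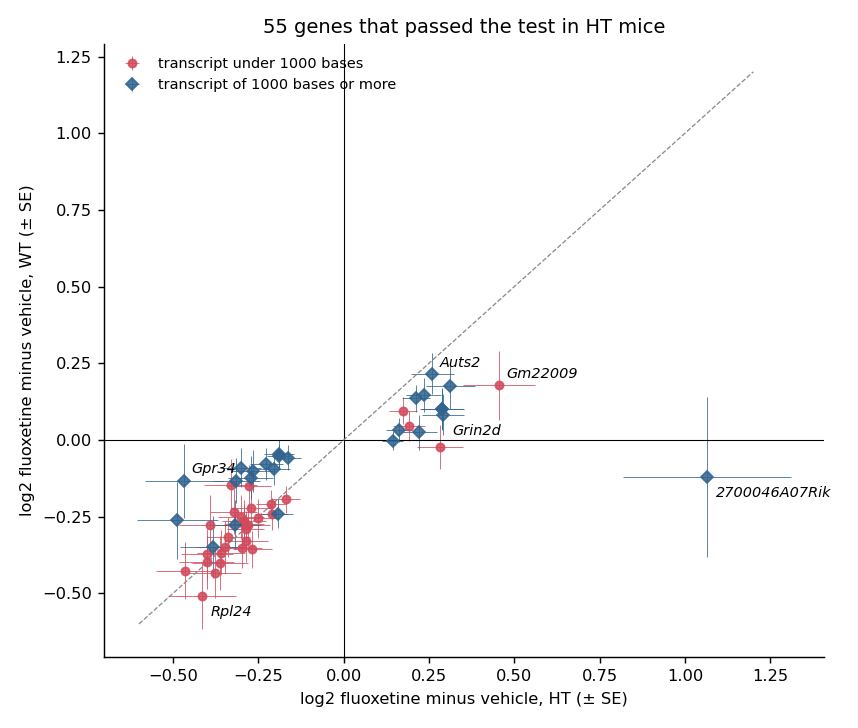
Log2 change under fluoxetine in HT mice (x axis) and in WT mice (y axis) for the 55 genes that passed in HT mice, ± SE of the fit; the dashed line marks equal values. Genes with transcripts under 1000 bases are circles and longer ones diamonds. All 40 falls also lie below zero in WT mice, and 12 of the 15 rises lie above it.

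Calls near the threshold were not separated from their neighbours. Just inside it lay Sar1b (adjusted p 0.0475), Plekho2 (0.047) and Kcnv1 (0.047), and just outside it Rsrp1 (0.0511), Ndufb6 (0.0515) and Gpx4, a peroxidase that protects membrane lipids (0.052). Rsrp1 had 7981, 8944 and 9703 in HT fluoxetine and 6224, 7660 and 8758 in HT vehicle libraries. Gpx4 had 4213, 4986 and 5545 in HT fluoxetine and 5295, 5607 and 6084 in HT vehicle libraries.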

How the data were processed

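Poly(A) RNA of the prefrontal cortex was sequenced from libraries of a stranded mRNA kit, per the labels' protocols. What the authors deposited is a non-negative signal for each gene: estimated counts after normalization. Salmon 0.11.2, R 3.6.0, DESeq2 1.19.11 and GRCm38 are named in the submitters' processing notes. Annotation release, filters and use of strand are not stated in the sources used here. The values are not whole counts, so limma 3.58.1 in R 4.3.3 replaced a test of counts. Read depth per library is unknown, and genes near the minimum mean of 10 are the least precise.

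All 57 libraries entered 1 fit of 12 groups on log2(value + 1), with trend and robust moderation and 45 residual degrees of freedom. This scale understates changes of low genes. The 16659 genes averaging 10 or more across libraries were tested, with Benjamini-Hochberg adjustment across that whole set. Each effect averages the female and male effects. Transcript and coding lengths and gene coordinates, counted from 1, come from GENCODE vM21, and promoters from RefSeq on GRCm38.p6. Library measures were compared by permutation within sex (100000 resamples, SciPy 1.17.1), and the Rpl24 locus by exact permutation. Columns were matched to samples by library name. No pair of libraries held identical values. Tests were checked on simulated data first.

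The members and the 37 gene lists were chosen with earlier results of these data known. Genes named are Shank2, the 15 rises and 20 falls with the smallest p, up to 6 called members of each list, all tested serotonin genes, the smallest p of lists without a call, the 3 smallest p-values in each direction of contrasts without a call, and 3 genes on each side of the threshold. Predicted genes were named only among the 5 smallest p-values of a direction, and exceptions are stated. Some genes that these rules select are not reported here. Alternatives covered pseudocount, filter, normalization, moderation, array weights, the libraries fitted, a replicate block, length and tissue terms, and each library left out. Those for WT mice and the Rpl24 sum were added after seeing the data.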

Additional observations from a re-analysis of the deposited data

Results flagged for a closer look

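Single libraries that lay far from the other 9 of their group were sought with Dixon's test at its 95% critical value in 184 groups of values, and 15 were found; chance gives about 1 in 20. Of these, 5 belonged to HT fluoxetine male 3, which had Plin4, a lipid droplet gene, at 593 (next 80.9), Gpr34 at 100.3 (next 229.8), Gpr17 at 1927 (next 2779), Sorbs3 at 886.6 (next 753.4) and Maoa at 1289 (next 1079). HT fluoxetine female 4 had Slc17a7 at 49540 (next 55650) and Slc18a2 at 47.5 (next 25.5), and HT fluoxetine female 1 had S100a10 at 547.4 (next 457.7). HT vehicle male 2 had Homer1 at 6364 (next 8050), Myh11 at 445.8 (next 316.9) and Ncstn at 2258 (next 2085). HT vehicle female 4 had Slc18a2 at 38.1 (next 17.4) and Tmem256 at 588.7 (next 485.4). HT vehicle female 2 had Ndufs4 at 1908 (next 1627), and HT vehicle male 3 had Htr1b at 742.5 (next 528.3).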

How the results depend on the processing

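All 55 genes kept their direction under each of the 12 other settings that tested them (2700046A07Rik was not tested at a minimum mean of 50) and in the 20 repeats that each left out a library. Since the genes were chosen in the same libraries, a kept direction says little. The 55 calls became 93 with a minimum mean of 50, 23 with no filter, 365 with array weights, 111 with a length term, and 19 to 171 with single libraries left out. With only the HT fluoxetine and HT vehicle groups in the fit, 78 genes passed, 38 of them among the 55. Same-numbered samples did not deviate together (10 pairs, correlations -0.132 to 0.0465), and with the number as a replicate block 25 genes passed, all among the 55. Within females array weights gave 4 calls. Within males the length term gave 4, the tissue marker terms 2, and leaving out single libraries 0 to 1. The difference between HT and WT mice gave 0 to 1. In WT mice the 140 calls became 41 with no filter, 2 with only the compared groups fitted, 25 with a replicate block, 0 with the length term, 257 with the tissue marker terms and 5 to 563 with single libraries left out. The difference between the sexes gave 0 calls under every setting tried. The cause of these shifts was not tested. Of 3689 values of single named genes under other settings, 3266 kept their side of the threshold, 372 lost and 51 gained a call. These values include genes and contrasts that had no call to lose. None reversed among those that passed in the main fit or in the other setting, and reversals of genes without a call were not counted. Ndufs4, Ccny, Gm10177, Cox7a2, Rpl39, Mtln, Vwa8, Ndufa2, Sh3rf3, Tmem256, Atp5l and Kndc1 passed under every setting. Rpl24 summed with Gm28037 gave -0.07 (exact permutation p 0.196). Read depth is unknown, and low genes such as 2700046A07Rik are limited by it most.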

Other observations

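HT fluoxetine male 3 held the highest of the 20 HT values for 3214 genes and the lowest for 3174, against at most 1537 and 1408 in any other HT library. It lay more than 1 log2 unit above every other HT library for 57 genes and more than 1 below for 98, while the largest such numbers elsewhere were 12 and 14. The angiotensin receptor gene Agtr1a stood at 277.8 in it and at 2.68 to 29.3 in the other 19 libraries. Lcn2, an acute-phase protein, stood at 93.0 against 2.87 to 16.5, the ligand gene Wnt10b at 779.8 against 39.2 to 140.9, and the insulin-sensitive glucose transporter gene Slc2a4 at 192.9 against 10.45 to 63.7. The microglial gene Fcrls stood at 61.1 against 503.9 to 1075, and Itgam, which codes for CD11b, at 127.7 against 447 to 924. The red cell gene Hbb-bt stood at 52.5 against 183.9 to 771.9. These genes were picked for their distance from the other libraries.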
